A study of Mus musculus with 168 samples.

Results

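The 35 genes described here encode the unfolded protein response and the integrated stress response, and were taken by name from a fixed list. All 35 were among the 39410 gene rows of the expression table and all 35 entered every fit. The list was divided by role into 9 genes of ATF4 and its targets, 5 genes for the eIF2alpha kinases and a phosphatase subunit, 3 endoplasmic reticulum (ER) stress sensors and factors, 14 ER chaperones and folding enzymes, and 4 genes of ER-associated degradation.

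The unfolded protein response senses misfolded protein in the ER through PERK (Eif2ak3), IRE1 (Ern1) and ATF6, and raises chaperones such as BiP (Hspa5) mainly through ATF6 and spliced XBP1. PERK belongs to a family of kinases that phosphorylate eIF2alpha in response to different stresses. Phosphorylated eIF2alpha lowers general protein synthesis while translation of ATF4 goes up, and ATF4 induces amino acid synthesis genes and CHOP (Ddit3), a factor tied to cell death under prolonged stress. Much of this control acts on translation, on protein cleavage and on Xbp1 splicing, which a table of transcript levels does not record.

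The study followed the delta7 mouse model of spinal muscular atrophy (SMA), a disease caused by too little SMN protein in which spinal motor neurons degenerate while eye motor neurons are largely spared. SMA mice were Smn-/-/SMN2+/+/SMN∆7+/+ and littermate controls were Smn+/+/SMN2+/+/SMN∆7+/+, so both carried the human SMN2 and SMN∆7 transgenes. Neurons of 6 populations were cut out by laser capture microdissection at postnatal days 2, 5 and 10: motor neurons of the ocular (oculomotor and trochlear), facial, vagus and hypoglossal nuclei and of the lumbar spinal cord, and neurons of the red nucleus, which are not motor neurons. Some ocular tubes of days 5 and 10 held oculomotor or trochlear neurons alone, per the labels. Each tube held about 150 cells, cut from tissue stained for histology only, so other cells touching the cut area could enter.

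The 168 libraries came from 34 mice, 15 control and 19 SMA, and made 160 samples of 1 mouse and 1 population, in 36 groups of 3 to 7 mice. Values are RPKM, reads scaled to transcript length and to library depth. Depth, read from the steps of the low RPKM values, ran from 0.342 to 16.3 M reads with a median of 5.89 M. Smn1, the gene removed in SMA mice, was at 4.32 to 63.3 RPKM in the 72 control samples and at 0 in 70 of 88 SMA samples, with a highest SMA value of 4.24. The summed level of the motor neuron markers Chat, Slc5a7, Isl1 and Prph was at least 659 RPKM in every control sample of the 5 motor populations and between 29.9 and 100.5 in the red nucleus. Summed oligodendrocyte markers were low at day 2 and high at day 10 in every population but vagus. Control medians were 44.4 and 886 RPKM in lumbar neurons, and 88.7 and 58.2 in vagus. Of the astrocyte markers, Gfap was near 0 in red nucleus controls (0.0855 RPKM), while Aldoc (1148.5 RPKM there) carried most of that list's sum. In such bulk samples fewer cells of a type and less RNA per cell cannot be told apart.

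The levels of the 35 genes spanned a wide range. Over the 160 samples 6 of the 35 averaged at least 100 RPKM, 18 between 10 and 100, and 11 less than 10, and 28 were above 0 in every sample. The 6 most abundant were the lectin chaperones calreticulin (Calr, 203.7 RPKM) and calnexin (Canx, 173.8), asparagine synthetase (Asns, 135), BiP (Hspa5, 130), Sel1l (129), the scaffold of the main ER degradation ligase, and Hsp90b1 (123.9), the ER form of HSP90. The sensors were scarce: Ern1 averaged 0.877 RPKM, Atf6 3.44 and Eif2ak3 3.64. Transcript of the factor ATF4 averaged 49.4 RPKM, with a range of 23.1 to 136. Among its targets the serine synthesis genes parted: Psat1 averaged 49.4 RPKM and Phgdh, which acts before it, 1.014 with 16 samples at 0. The pseudokinase Trib3, a feedback inhibitor of ATF4, averaged 1.28 RPKM and was at 0 in 40 samples.

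Promoters are shown for the member that passed the test between genotypes (Ddit3), for the one with the lowest p of the age comparisons (Chac1), and for a chaperone that varied both with age and between populations (Canx). 3 motifs were searched on both strands in the 250 bases before each RefSeq gene start: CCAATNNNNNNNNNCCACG (ERSE, the ATF6 and NF-Y element), ATTGGNCCACG (ERSE-II) and TGATGNAA (CARE, the C/EBP-ATF element bound by ATF4). The letters of these motifs do not contain each other, though ERSE and ERSE-II both end on CCACG. RefSeq windows on GRCm38.p6 were at hand for 31 of the 35 genes. Each sequence is given 5′ to 3′ on the strand of the gene, up to the first base of a GENCODE M21 exon of that strand, with motif matches in capitals.
Ddit3, chr10:127290543-127290773, plus strand: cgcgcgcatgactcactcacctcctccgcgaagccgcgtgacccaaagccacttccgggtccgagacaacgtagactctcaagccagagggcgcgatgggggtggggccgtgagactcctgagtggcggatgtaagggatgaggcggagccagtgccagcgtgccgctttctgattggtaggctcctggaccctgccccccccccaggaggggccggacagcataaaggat
Chac1, chr2:119350992-119351228, plus strand: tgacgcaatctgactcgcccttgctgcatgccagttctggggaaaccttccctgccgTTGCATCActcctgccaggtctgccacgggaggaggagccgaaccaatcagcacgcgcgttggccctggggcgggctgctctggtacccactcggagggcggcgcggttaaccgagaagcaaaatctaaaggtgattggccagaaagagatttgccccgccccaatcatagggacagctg
Canx, chr11:50325674-50325923, minus strand: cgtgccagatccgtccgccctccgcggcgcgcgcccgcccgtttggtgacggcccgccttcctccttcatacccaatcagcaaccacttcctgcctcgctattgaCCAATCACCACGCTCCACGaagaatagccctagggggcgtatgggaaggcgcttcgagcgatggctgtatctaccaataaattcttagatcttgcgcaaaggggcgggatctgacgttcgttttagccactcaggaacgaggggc

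The Ddit3 window held none of these letters, Chac1 held 1 CARE on the minus strand and Canx 1 ERSE. ERSE was present for 8 of the 31 genes (Hspa5, Hsp90b1, Pdia6, Calr, Canx, Dnajc3, Creld2 and Syvn1) and for 0.13% of all 27025 genes with a window. In Hspa5 the match reads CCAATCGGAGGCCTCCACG and ends 47 bases before the RefSeq start. ERSE-II occurred for 1 gene of the list, Herpud1, and for 0.037% of all genes. CARE occurred for Chac1, Asns and Herpud1 and for 3.91% of all genes. A match is a description of letters and not evidence of binding, and a window with no match says nothing of the factor.

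Of all 18 comparisons of SMA with control, 6 populations at 3 ages, a single gene in a single comparison passed the test: Ddit3 in lumbar motor neurons at day 10, where it rose. That is 1 of 630 pairs of gene and comparison at a Benjamini-Hochberg adjusted limma p under 0.05. Over all genes and the same 18 comparisons 0.129% of pairs passed, so the count for the list is near what that background gives. At an unadjusted p under 0.05, 39 of the 630 pairs passed (6.19%), 26 higher and 13 lower in SMA, against 7.1% of all pairs. None of the 14 ER chaperones passed the adjusted threshold in any of the 18 comparisons, with 13 of 252 pairs under an unadjusted p of 0.05. The map of differences across the 35 genes shows this as scattered colour with 1 marked cell.

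**Figure D1:**
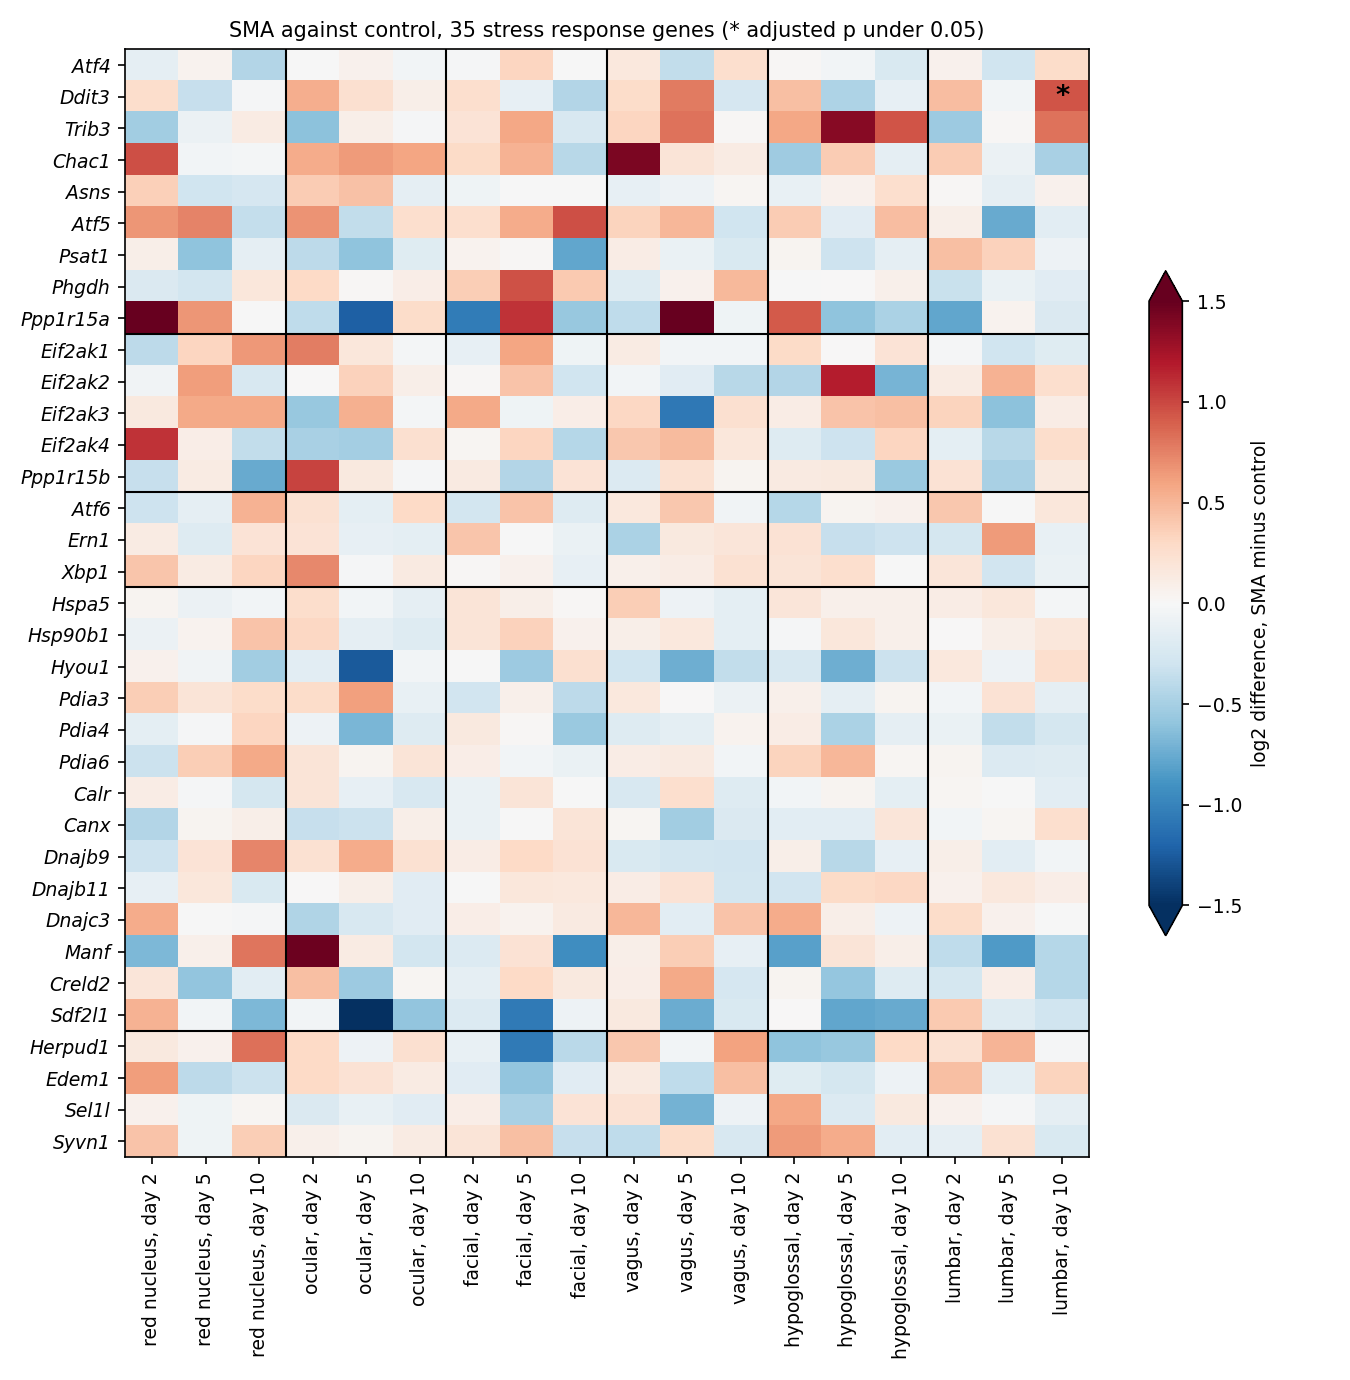
Log2 difference of RPKM + 1 (SMA minus control, colour, limited to 1.5 either way) for the 35 genes in rows and the 18 comparisons in columns; horizontal lines part the 5 roles in the order given in the text and the star marks an adjusted limma p under 0.05. The only star is Ddit3 in lumbar neurons at day 10, and no row keeps 1 colour across the 18 columns.

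Ddit3 encodes CHOP and lies at chr10:127290774-127296288 on the plus strand of GRCm38. In lumbar controls at day 10 it was at 37.2, 39.2, 47.6 and 59.05 RPKM, a mean of 45.8 ± 9.94 (SD, n = 4). In lumbar SMA mice of that age it was at 71.2, 76.2, 92.3, 100.6 and 103.2 RPKM, a mean of 88.7 ± 14.4 (n = 5). Every SMA sample was above every control sample. The log2 difference was 0.95 (SE 0.21, 95% interval 0.51 to 1.38) with a limma adjusted p of 0.0236, in a comparison where 0.775% of all genes passed. Depth overlapped, at 2.86 to 5.42 M reads in the controls and 2.32 to 5.42 M in the SMA libraries.

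At earlier ages the lumbar groups overlapped. Ddit3 averaged 32.4 ± 11.8 RPKM (SD, n = 4) in day 2 controls and 43.8 ± 9.01 (n = 7) in SMA, a log2 difference of 0.46 (SE 0.20, adjusted limma p 0.816). At day 5 the means were 36.7 ± 9.22 (n = 5) and 35.2 ± 5.94 (n = 5). In the other 5 populations the genotypes overlapped at every age, and the day 10 log2 differences of Ddit3 were 0.09 in ocular, -0.02 in red nucleus, -0.44 in facial, -0.25 in vagus and -0.12 in hypoglossal neurons. High values were not limited to lumbar SMA mice: 7 of the other 155 samples reached the lowest of them, all at day 10, among them 2 of 4 vagus controls (the higher at 106.7 RPKM) and 2 of 5 vagus SMA mice.

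**Figure D2:**
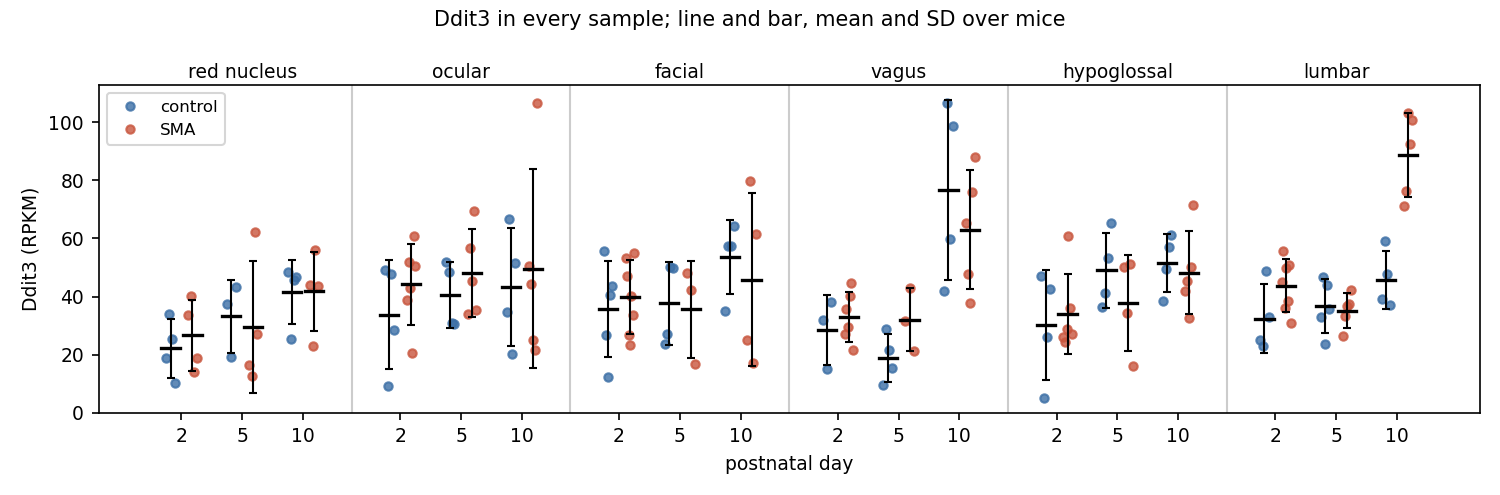
Ddit3 in RPKM (linear axis from 0) in each of the 160 samples, by population and postnatal day; points are mice, horizontal lines the mean and bars the SD. The 5 lumbar SMA samples of day 10 lie between 71.2 and 103.2 RPKM, above their 4 controls at 37.2 to 59.05, while both genotypes overlap in every other pair of groups.

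Whether the Ddit3 difference belonged to lumbar neurons more than to others was tested directly, and no difference was detected. The F test of the day 10 genotype difference across the 6 populations gave an adjusted limma p of 1, and the lumbar difference exceeded the ocular one by 0.86 log2 units with a 95% interval of -0.27 to 1.99. Change of the genotype difference with age in lumbar neurons had an unadjusted p of 0.0085 and an adjusted limma p of 0.442. The call also depended on few mice: it was lost without SMA mouse 249 (adjusted p 0.0743), 250 (0.0739) or 258 (0.0615), without control mouse 247 (0.09) or 254 (0.106), and with each library as its own sample (0.0713), while the estimate kept within 0.86 to 1.08 without any 1 of the 9 mice.

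GENCODE M21 lists 2 loci named Ddit3. The longer was used here, and the other was left out of the search for overlaps. The locus used shares 68 of its 1713 exon bases with Mars, the methionyl-tRNA synthetase gene on the opposite strand, and 13 with Gm4189, a noncoding RNA. The library method does not mark strand, so reads in those bases could belong to either gene. Mars was at 52.9, 55.8, 61.0, 65.5 and 71.4 RPKM in the lumbar SMA mice of day 10, and at 9.87, 11.5, 61.8 and 74.4 in the controls. These groups overlapped (log2 difference 1.13, SE 0.36, adjusted limma p 0.178), and the part of Mars reads in the Ddit3 value was not tested. Summed astrocyte markers had medians of 1967 RPKM in lumbar controls and 2160 in SMA at day 10, and summed oligodendrocyte markers 886 and 761, with overlapping ranges. The astrocyte sum is mostly Aldoc and S100b, and its other markers went both ways: Gfap was at 10.5 ± 3.01 RPKM in controls (SD, n = 4) and 17.3 ± 5.05 in SMA (n = 5), and Aqp4 at 13.1 ± 1.71 and 9.31 ± 1.47. Summed vessel markers were low but higher in SMA, at 22.4 to 49.5 RPKM against 8.73 to 24.4, carried by Rgs5 (19.2 ± 5.82 against 7.34 ± 2.65; SD, n = 5 and 4). Ly6c1 was at 7.07 ± 4.29 RPKM in SMA and 4.53 ± 2.31 in controls, Cldn5 at 2.42 ± 2.08 and 2.60 ± 0.813, and Pecam1, Flt1, Kdr, Tek and Pdgfrb averaged below 1 RPKM in both. The part of these cells in the Ddit3 value was not tested.

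No other ATF4 gene passed in the same samples. Atf4 itself differed by -0.44 to 0.33 log2 units over the 18 comparisons and had no unadjusted p under 0.05. Chac1, a glutathione-degrading enzyme induced by ATF4 and CHOP, was at 51.1 ± 18.9 RPKM in lumbar controls (SD, n = 4) and 36.3 ± 13.5 in SMA (n = 5) at day 10. Trib3 was at 0.196 ± 0.391 (n = 4) and 1.11 ± 0.621 RPKM (n = 5), with a log2 difference of 0.81 (SE 0.36) and an adjusted limma p of 0.41. Asns differed by -0.30 to 0.44 over the 18 comparisons. Ppp1r15a, which recruits the phosphatase that restores eIF2alpha, had the widest range of the 35, from -1.23 to 1.99. The upper end was the red nucleus at day 2, where controls were at 0, 0, 0 and 2.22 RPKM and SMA mice at 0, 2.4, 12.3 and 16.8 (adjusted limma p 0.334).

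The next members by unadjusted p stood in ocular neurons, and none passed after adjustment. Manf, a secreted ER stress protein with trophic activity on neurons, was at 8.91, 33.5, 42.7 and 63.4 RPKM in day 2 controls and at 44.6 to 134.4, median 100.4, in the 6 SMA mice. Its log2 difference was 1.47 (SE 0.40) with an adjusted limma p of 0.139, and 0.92 without control mouse 28. Xbp1, whose spliced form drives chaperone genes, was at 16.3, 19.5, 27.8 and 32.4 RPKM in those controls and at 31.9 to 50.1, median 38.8, in SMA (log2 0.73, SE 0.21, adjusted limma p 0.168). Ppp1r15b, the constitutive eIF2alpha phosphatase subunit, was at 2.11, 2.29, 5.75 and 7.85 RPKM in controls and at 5.99 to 18.3, median 8.14, in SMA (log2 1.02, SE 0.32, adjusted limma p 0.213). In each of the 3 the groups overlapped at their edges.

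At day 5 ocular neurons gave the opposite sign for a pair of chaperones. Per the labels, ocular SMA tubes of that age held both nuclei, while most control tubes held the oculomotor or trochlear nucleus alone. After tubes of the same mouse were averaged, most control samples held both nuclei as well. The exception was a control mouse with oculomotor neurons alone. The part of the nuclei sampled in the differences was not tested. Hyou1, an HSP70-type ER chaperone, was at 27.2, 43.5, 81.1 and 114.8 RPKM in controls and at 13.9, 18.9, 22.6, 31.6 and 37.9 in SMA, a log2 difference of -1.26 (SE 0.40, adjusted limma p 0.5). Sdf2l1, which keeps BiP clients soluble, was at 36.4, 40.5, 54.8 and 81.8 RPKM in controls and at 2.07, 15.4, 23.2, 37.8 and 40.5 in SMA, a log2 difference of -1.51 (SE 0.50, adjusted limma p 0.5) that was -0.87 without SMA mouse 31. The groups overlapped for both genes. Over all 18 comparisons the estimate of each was below 0 in 14 and above 0 in 4, and populations of a given age come from the same mice.

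Described as lists, with no test, the median log2 difference of the 9 ATF4 genes ran from -0.24 in facial neurons at day 10 to 0.52 in facial neurons at day 5 and was above the median of all genes in 8 of 18 comparisons. Both ends rested on few mice: the facial day 10 median was -0.62 without SMA mouse 199, -0.02 without 249 and 0.02 without 258, and the facial day 5 median was 0.28 without control mouse 34 and 0.32 without SMA mouse 61. Other settings moved them too, to -0.45 with a pseudocount of 0.1 and -0.43 with RPKM of at least 5 at day 10, and to 0.17 with RPKM of at least 5 and 0.34 after quantile normalization at day 5. The median of the 14 chaperones ran from -0.17 in vagus at day 10 to 0.19 in ocular neurons at day 2 and was above that of all genes in 5 of 18. These ends were -0.10 without control mouse 247 and -0.11 without 252 in vagus, and 0.11 without control 14, 0.12 without 26 and 0.10 without 28 in ocular neurons. In lumbar neurons at day 10, where Ddit3 rose, the ATF4 list had a median of -0.08 with 4 genes higher and 5 lower, the chaperones -0.09 with 4 higher and 10 lower, and all genes of the fit 0.05. With 1 mouse left out that ATF4 median lay between -0.04 and 0.14, above 0 without SMA mouse 196 or 250 or control 252, 253 or 254, and the chaperone median between -0.16 and -0.04. The 95% interval of a single estimate was wide, with a median half-width of 0.753 log2 units for ATF4 genes and 0.527 for chaperones.

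**Figure D3:**
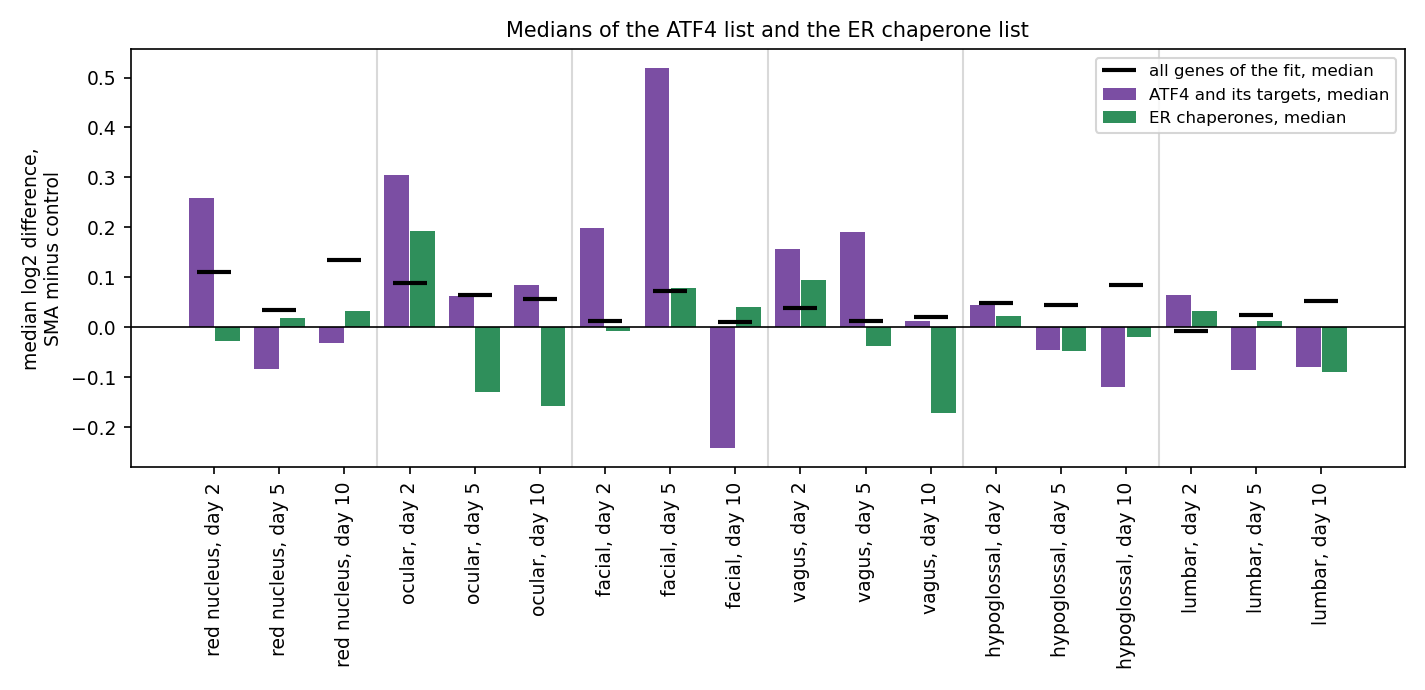
Median log2 difference (SMA minus control) of the 9 ATF4 genes and the 14 ER chaperones in each of the 18 comparisons, as bars from 0, with the median of all genes of the fit as a black dash. The ATF4 bars run from -0.24 to 0.52 and the chaperone bars from -0.17 to 0.19.

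The kinases, sensors and degradation genes gave no call either. The 4 eIF2alpha kinases HRI (Eif2ak1), PKR (Eif2ak2), PERK and GCN2 (Eif2ak4) with Ppp1r15b had 6 of 90 pairs under an unadjusted limma p of 0.05 (6.67%). The sensors and Xbp1 had 2 of 54 (3.7%), and the degradation genes Herpud1, Edem1, Sel1l and Syvn1 had 4 of 72 (5.56%). Over all genes 7.1% of pairs were under it. PKR in hypoglossal neurons at day 5 was at 1.06 ± 0.783 RPKM in controls (SD, n = 4) and 3.46 ± 0.558 in SMA (n = 4), with no overlap but an adjusted limma p of 0.712. Herpud1, a membrane protein that brings substrates to the ligase, was at 35 ± 10.9 and 60.6 ± 5.29 RPKM in red nucleus controls and SMA at day 10 (n = 4 each, adjusted limma p 0.741).

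Tests of how the genotype difference varied found no member of the 35. Change with age, by an F test within a population, passed for none of the 35 in any of the 6 populations, beside 0.101% of all genes in ocular, 0.104% in facial and 0% in red nucleus, vagus, hypoglossal and lumbar neurons. Variation between populations passed for none at day 2, 5 or 10 (0.4%, 0.207% and 0.579% of all genes). The lumbar difference against the ocular one and the facial against the vagus one, both at day 10, passed for none either (0.0359% and 0.337% of all genes). The lowest unadjusted p in these population tests was 0.0033 for Manf at day 2 (adjusted limma p 0.195).

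A wider list of 43 other ATF4 pathway genes had 2 calls among 696 pairs in the 18 comparisons, beside 0.129% of pairs over all genes. Both were higher in SMA at day 10. Gdf15, a stress cytokine, rose in ocular neurons to 3.56 ± 1.25 RPKM (SD, n = 5) from 0.0923 ± 0.148 (n = 4, 2 at 0), in a comparison where 0.359% of all genes passed. Tnfrsf10b, a death receptor, rose in facial neurons to 3.74 ± 1.009 RPKM (n = 4) while all 4 controls were at 0 (adjusted limma p 0.000241, 0.666% of all genes passed). Of the 8 astrocyte markers Gfap alone passed in facial SMA neurons at day 10, where it was higher (log2 2.81, adjusted limma p 0.00742). Summed astrocyte markers there had medians of 2180 RPKM in controls and 2202 in SMA, with overlapping ranges. The part of astrocytes in the Tnfrsf10b value was not tested. Ddit3 in those facial samples was at 53.6 ± 12.8 RPKM in controls and 45.8 ± 29.7 in SMA (n = 4 each). What raised Gdf15 and Tnfrsf10b was not tested. None of 65 other ER folding and degradation genes passed in any of the 18 comparisons. Under an unadjusted limma p of 0.05 there were 67 of 1113 pairs (6.02%), against 7.1% of all pairs.

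More members passed with age than with genotype. The same held over all genes, of which 0.129% of pairs passed between genotypes. Between day 2 and day 10 in controls, 5 of the 35 passed in lumbar neurons, 4 in the red nucleus and 2 in facial neurons, and none in ocular, vagus or hypoglossal neurons. The background was 12% of all genes in lumbar, 11.1% in red nucleus, 5.36% in facial, 8.02% in ocular, 1.02% in vagus and 5.11% in hypoglossal neurons, so the list was near it in lumbar, red nucleus and facial neurons. The 11 calls split into 5 higher and 6 lower at day 10. Mice of day 2 and day 10 are different animals. Library number also went with age: every day 10 control library was numbered above every day 2 control library. Median control depth was lower at day 10 in every population, for example 4.355 M reads in lumbar neurons against 6.23 at day 2. The part of library number and depth in the age differences was not tested. The oligodendrocyte sum moved with age in these samples (median 44.4 to 886 RPKM in lumbar, 23.1 to 452.5 in red nucleus and 42.6 to 258.8 in facial controls). Its part in the age differences was not tested. The same sum went from 21.1 to 476.7 RPKM in ocular and from 70.2 to 587.9 in hypoglossal controls, where no member passed. In vagus controls, also without a call, it went from 88.7 to 58.2 RPKM.

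Of the ATF4 genes, Chac1 rose in lumbar neurons and in the red nucleus. Lumbar controls were at 6.59, 14.1, 14.4 and 16.0 RPKM at day 2 and at 34.7, 42.9, 48.8 and 78.1 at day 10, with no overlap (log2 1.92, SE 0.29, adjusted limma p 2.6e-05). At day 5 it was at 12.4 to 31.9 RPKM in 5 mice, overlapping day 2. In the red nucleus Chac1 went from 4.51 ± 3.47 RPKM (SD, n = 4) to 14.3 ± 4.15 (n = 4), a log2 difference of 1.65 (SE 0.36, adjusted limma p 0.00362), which did not pass in a fit of just those groups (adjusted p 0.0866). The estimate was above 0 in all 6 populations, from 0.03 in hypoglossal to the lumbar value, and did not pass in the other 4.

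Ppp1r15a, the inducible subunit of the eIF2alpha phosphatase, rose in the red nucleus and passed in no other population. Its controls were at 0, 0, 0 and 2.22 RPKM at day 2 and at 13.6, 14.3, 15.5 and 31.7 at day 10 (log2 of RPKM + 1 higher by 3.80, SE 0.66, adjusted limma p 0.000468). The 2 ages were fully apart. In the other populations the day 2 means were already 11.8 to 28.7 RPKM, and 4 of 6 estimates were above 0. Whether the red nucleus differed from the others in this change was not tested. As an immediate response gene, Ppp1r15a is also known to react to handling of tissue. The part of handling in these values was not tested.

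Phgdh and Trib3, both near the floor of detection, fell. Phgdh in facial neurons fell by 1.56 log2 units (SE 0.40, adjusted limma p 0.0184), from 1.51, 1.91, 2.12, 3.04 and 4.55 RPKM to 0.102, 0.113, 0.191 and 0.341. Trib3 in lumbar neurons fell by 1.16 (SE 0.38, adjusted limma p 0.0401), from 1.12 to 2.44 RPKM in 4 mice to 0, 0, 0 and 0.783. These 2 calls were fragile: Phgdh was lost without mouse 244, 247 or 252 (adjusted p up to 0.0544) and without the day 2 controls numbered above 200 (0.0668), and Trib3 without 7 of the 8 mice, namely 20, 28, 240, 244, 247, 253 and 254 (adjusted p up to 0.130), with no filter on low values (0.0583), and with each library as its own sample (0.0536). Trib3 was also lost without the day 2 controls numbered above 200 (adjusted limma p 0.0818). Astrocytes are known to make more PHGDH than neurons, and the summed astrocyte markers of facial controls had medians of 1638 RPKM at day 2 and 2180 at day 10. Those markers went both ways: S100b rose (log2 1.81) while Gja1 fell from 32.2 ± 6.90 RPKM (SD, n = 5) to 11.7 ± 3.67 (n = 4; log2 -1.40, adjusted limma p 0.00189). Their part in the Phgdh value was not tested.

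Among the chaperones Sdf2l1 rose and Pdia6, Canx and Hspa5 fell. Sdf2l1 in lumbar controls was at 33.6, 39.4, 41.2 and 43.9 RPKM at day 2 and at 71.7, 73.7, 76.1 and 92.6 at day 10 (log2 0.97, SE 0.21, adjusted limma p 0.00202). In the red nucleus it went from 39.9 ± 22.2 (SD, n = 4) to 99.4 ± 30.2 RPKM (n = 4), a log2 difference of 1.43 (SE 0.37, adjusted limma p 0.0125), lost without mouse 28 (adjusted p 0.0527) and in a fit of just those groups (0.0662). The course was not steady: day 5 control means of Sdf2l1 were below the day 2 means in every population, for example 16.7 ± 2.44 RPKM (n = 3) in the red nucleus. That dip was not tested.

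**Figure D4:**
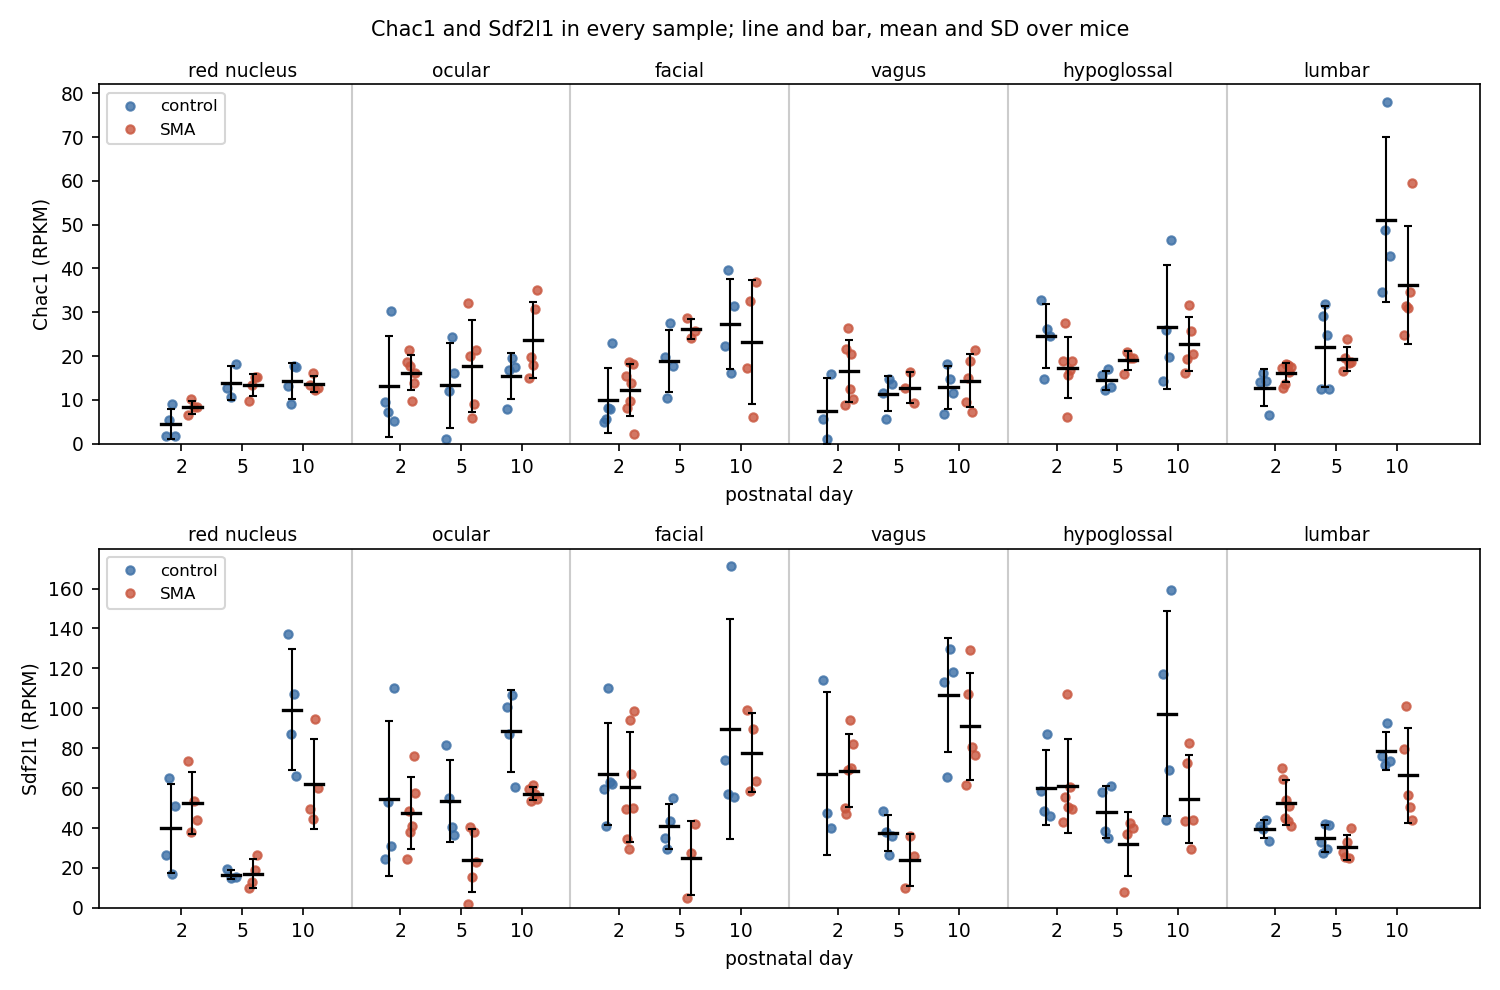
Chac1 (upper panel) and Sdf2l1 (lower panel) in RPKM (linear axes from 0) in each sample, by population and postnatal day; points are mice, lines means, bars SD. Chac1 in lumbar controls lies at 34.7 to 78.1 RPKM at day 10 and at 6.59 to 16.0 at day 2, and Sdf2l1 is lowest at day 5 and highest at day 10 in the red nucleus.

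Pdia6, a protein disulfide isomerase that also restrains IRE1, fell by 1.34 log2 units in the red nucleus (SE 0.35, adjusted limma p 0.0151), from 48.5 ± 17.2 to 20.0 ± 12 RPKM (SD, n = 4 each). In facial neurons it fell by 0.98 (SE 0.26, adjusted limma p 0.0228), from 59.6 ± 14.7 (n = 5) to 30.0 ± 9.66 RPKM (n = 4). All 6 population estimates were below 0. Control mice 252 and 253 decided the red nucleus call (adjusted p 0.0691 and 0.0599 without them), it did not pass in a fit of just those groups (0.111), and 252 had the shallowest library of the study, at 0.342 M reads. The facial call was lost without mouse 28, 240, 244 or 247 (adjusted p up to 0.126) and in a fit of just those groups (0.0724). It was also lost without the day 2 controls numbered above 200 (adjusted limma p 0.126).

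Canx, the membrane-bound lectin chaperone whose promoter with its ERSE is printed above, fell by 0.40 log2 units in lumbar neurons (SE 0.09, adjusted limma p 0.00269). Its controls were at 147.7, 148.7, 149.9 and 164.7 RPKM at day 2 and at 110.8, 113.2, 118.2 and 119.5 at day 10, with no overlap. In lumbar SMA mice of day 10 Canx was at 116.1, 138.7, 142.7, 144.9 and 147.5 RPKM, and 4 of those 5 were above all controls. That difference of 0.25 (SE 0.09) had an adjusted limma p of 0.21. Hspa5 fell by 0.40 as well (SE 0.12, adjusted limma p 0.025), from 134.6 ± 12.3 to 102.2 ± 12.6 RPKM (SD, n = 4 each), and was lost without mouse 20, 240, 244, 252 or 254 (adjusted p up to 0.0924), after quantile normalization (0.0563), in a fit of just those groups (0.0702), and without the day 2 controls numbered above 200 (0.273). For Hspa5 the lumbar genotype difference at day 10 was -0.03 (SE 0.11).

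No kinase, sensor or degradation gene passed with age. Among the wider lists 14 pairs of gene and population rose and 7 fell for the other ATF4 pathway genes, and 4 rose and 13 fell for the other ER folding genes. These are 9.05% and 4.58% of the pairs tested, within the 1.02% to 12% that the 6 populations gave over all genes. Got1, the cytosolic aspartate aminotransferase, rose in 5 of 6 populations (log2 0.50 to 1.10). Slc7a3, a cationic amino acid transporter, fell in 4, with log2 differences of -2.82 to -1.67. Of ER genes, Sec61b, a translocon subunit, fell in lumbar and hypoglossal neurons (log2 -0.91 and -1.009).

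Between populations in controls the list differed about as often as all genes did. By an F test over the means of 3 ages, 17 of the 35 differed among the 6 populations, against 42.5% of all genes, which is close to the share of the list. They were 6 of 9 ATF4 genes, 8 of 14 chaperones, and Eif2ak1, Xbp1 and Herpud1. Of the 8 genes with an ERSE in the window 5 were among them. The same mice gave several populations, and with mouse as a replicate block 17 passed as well.

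Vagus motor neurons had the highest mean for all 8 of the chaperones that passed and for 12 of all 14. They also had it for 17 of all 35 members. The share of all genes highest in vagus is not given here, so these counts have no background beside them. Calr was at 233.2 ± 37.2 RPKM in vagus controls (SD, n = 11) and at 191.04 ± 23.6 in ocular controls (n = 12), the lowest. Canx was at 236 ± 36.98 in vagus and 148 ± 24.9 in lumbar neurons (n = 13), and Hsp90b1 averaged 164.5 in vagus and 98.7 in the red nucleus as means of the 3 ages. The highest and lowest population differed by 1.2 to 1.86 times among the 8. Quantile normalization left 10 of the 14 highest in vagus and ended the calls of Hspa5 (adjusted limma p 0.214), Calr (0.123) and Hyou1 (0.0528), and the Hyou1 call also fell without mouse 26, 29, 30, 244, 247 or 252 (up to 0.114). Hyou1 was lost as well with each library as its own sample (adjusted limma p 0.0644). Neither Calr nor Hyou1 passed without the day 2 controls numbered above 200. Summed astrocyte markers were lowest in vagus, with a median of 598 RPKM against 1208 to 2108 elsewhere. Aldoc and S100b carried that sum (495 and 23.4 RPKM in vagus), whereas Gfap (8.75) and Slc1a3 (20.9) had their highest control means in vagus. Summed microglia markers were highest in vagus, with a median of 46.4 RPKM against 14.2 to 32.6. These markers also parted: Aif1 (22.6 RPKM) and Tmem119 (1.06) had their highest control means in vagus. C1qa, C1qb, P2ry12 and Cx3cr1 were highest elsewhere, for example C1qb at 4.48 RPKM in ocular and 4.07 in vagus controls. The part of either cell type was not tested.

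**Figure D5:**
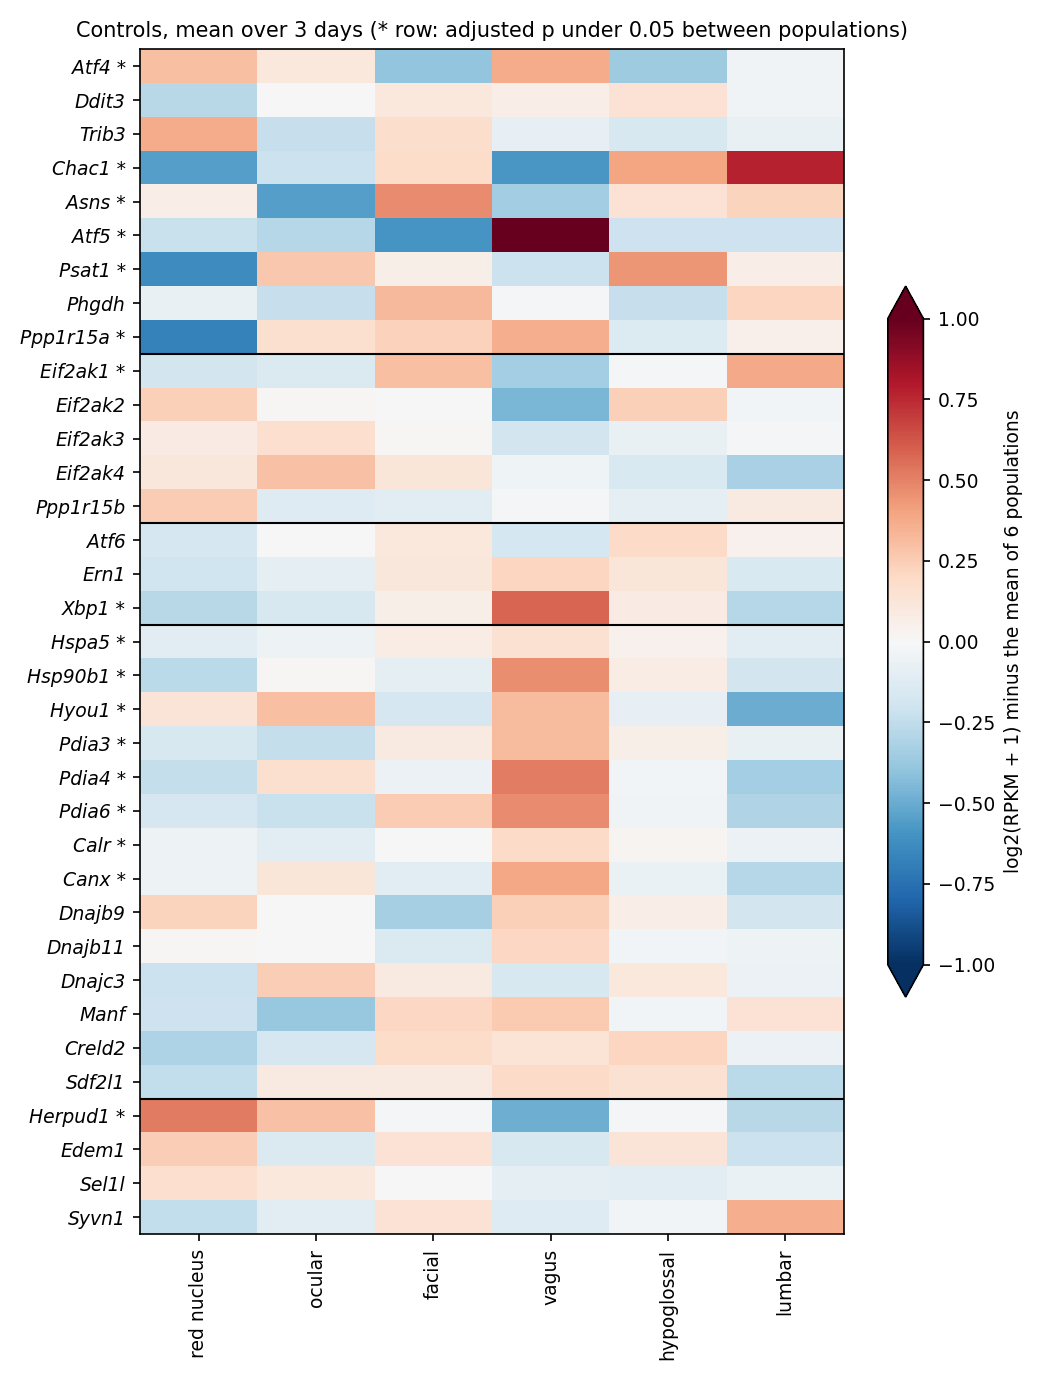
Control levels of the 35 genes in the 6 populations, as log2 of the mean RPKM over 3 ages + 1, minus the mean of the 6 populations (colour, limited to 1 either way); a star after the gene marks an adjusted limma p under 0.05 in the F test. The vagus column is highest for 12 of the 14 chaperones, and Atf5 is highest in vagus.

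Xbp1 followed the same order at its top, with 46.4 ± 11.8 RPKM in vagus (n = 11), followed by 32.5 ± 8.67 in hypoglossal and 32.4 ± 11.6 in facial neurons, which did not differ beyond their spread, then 27.3 ± 7.14 in ocular, 25.1 ± 6.52 in lumbar and 24.8 ± 6.61 in red nucleus neurons (SD, n = 11 to 13). Herpud1, of the degradation branch, was lowest in vagus, at 17.5 ± 7.78 RPKM, and highest in the red nucleus, at 35.3 ± 15.6. Sel1l, of the same branch, did not pass (118.6 to 144 RPKM, adjusted limma p 0.455).

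The ATF4 genes did not share 1 order. Atf5, a factor translated like ATF4, was at 9.13 ± 4.92 RPKM in vagus controls (SD, n = 11, lowest 4.19) and at 1.31 to 2.04 in the other 5 populations. The vagus values overlapped with the highest hypoglossal sample, at 7.10, and the highest red nucleus sample, at 5.63. Asns was highest in facial neurons, at 182.04 ± 39.5 RPKM (n = 13), and lowest in ocular neurons, at 89.02 ± 23.3 (n = 12). Every facial sample, at 136.7 RPKM or more, was above every ocular sample. Psat1 was highest in hypoglossal neurons, at 67.3 ± 22.0, and lowest in the red nucleus, at 31.1 ± 9.79. Atf4 itself was highest in vagus (64.4) and red nucleus (61.5) and lowest in facial neurons (37.02). Ddit3 did not pass, with means of 32.3 to 43.6 RPKM.

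Lumbar neurons, which are lost early in SMA, were compared directly with ocular neurons, which are spared. In controls 6 of the 35 differed, against 14.5% of all genes. Higher in lumbar were Chac1 (log2 0.98, SE 0.26), Asns (0.80, SE 0.11) and the heme-regulated kinase Eif2ak1 (0.64, SE 0.17), which was at 18.8 ± 2.97 RPKM in lumbar (SD, n = 13) and 12.8 ± 4.51 in ocular controls (n = 12). Lower in lumbar were Hyou1 (log2 -0.68, SE 0.22), the amino acid sensing kinase Eif2ak4 (-0.61, SE 0.21) and Canx (-0.39, SE 0.09). Adjusted limma p values ran from 3.11e-09 for Asns to 0.0314 for Eif2ak4. Eif2ak4 was lost without mouse 14, 20, 29, 30, 244 or 247 (up to 0.104) and Hyou1 without 26, 29, 30, 244 or 252 (up to 0.11). A pseudocount of 0.1 also ended the Eif2ak4 call (adjusted limma p 0.0632). Neither gene passed without the day 2 controls numbered above 200. Of the 43 other ATF4 pathway genes 11 were higher and 3 lower in lumbar neurons, and of the 65 other ER genes 11 and 2.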

How the data were processed

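Each library was made with Smart-seq2 and tagmentation from about 150 laser-captured neurons, per the labels' protocols. The authors deposited 1 table of RPKM values; STAR 2.4.1c and the builds mm10 and hg19 are named in the submitters' processing notes, and the counter, annotation and strand setting are not given in the sources used here. Per the labels, 5 lumbar control libraries of day 5 were mapped together with reads from a previous series. RPKM divides by length and depth, so a few abundant genes can shift all others.

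Libraries of 1 mouse and population were averaged (168 to 160), and the mouse is the replicate. Genes at 1 RPKM or more in as many samples as the smallest group were fitted as log2(RPKM + 1), which understates changes of low genes, with limma 3.58.1 (R 4.3.3, lmFit, eBayes with trend), 1 fit of 6 groups per population and 1 joint fit of 36 groups; two-sided p values were adjusted (Benjamini-Hochberg) within each comparison over 15890 or more genes, with a threshold of 0.05. The script was tested on simulated data. Intervals are 95%. Populations of 1 mouse share the animal: deviations of same-mouse samples correlated with a median r of 0.0328 over 339 pairs, against -0.000944 for other pairs. Positions are from GENCODE M21 (GRCm38), promoters from RefSeq (GRCm38.p6), searched with Python 3.11.15 and pandas 2.3.3.

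Members and lists were chosen with earlier results of these data known. All 35 members are covered; values by mouse are given for members past the threshold between genotypes and those of lowest unadjusted p up to 6, and for age and population up to 3 members per role with the largest change past the threshold, beside values for others of note chosen after they were seen. Of the wider lists, genes past the threshold between genotypes are named, with others chosen after their values were seen. Alternatives were another pseudocount and filter, quantile normalization, unaveraged libraries, only the groups compared, day 2 without control libraries numbered above 200, a replicate block by mouse, and each mouse left out. All day 10 control libraries were numbered above 200, and at day 2 only control libraries were. Leaving those day 2 controls out therefore cannot separate library number from age. RPKM as deposited allow no count test here.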

Additional observations from a re-analysis of the deposited data

Results flagged for a closer look

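Among groups of 4 to 10 samples, screened for the 6 members given by mouse and the medians of the ATF4 list and the ER chaperones, 16 held a sample far from the others. That is 6.25% of the groups screened, and chance gives about 1 in 20. No explanation was tested.

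Hypoglossal SMA mice of day 2 gave 4 of them, each with 1 high sample: Ddit3 at 60.9 RPKM (others 24.4 to 36.2), Xbp1 at 49.6 (35.8 to 40.9), Hyou1 at 61.3 (25.1 to 38.4) and Sdf2l1 at 107.1 (43.1 to 60.6). The high Hyou1 and Sdf2l1 values came from mouse 206, Ddit3 from mouse 207 and Xbp1 from mouse 18. At day 5 Sdf2l1 had a low hypoglossal SMA sample at 7.97 RPKM (36.9 to 42.6). In hypoglossal controls of day 2 Ppp1r15b had a low sample at 3.31 RPKM (7.81 to 8.49), and the median log2(RPKM + 1) of the ATF4 list was 3.59 in mouse 28 against 4.59 to 4.76.

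Facial controls of day 2 held a high Xbp1 sample at 63.6 RPKM (27.0 to 30.5), a high Hyou1 sample at 71.2 (30.7 to 42.4) and a low chaperone median of 5.49 log2 units (5.99 to 6.14), from 3 different mice. At day 10 a facial control had Sdf2l1 at 171.5 RPKM (55.5 to 74.1). In ocular SMA mice Ppp1r15b reached 18.3 RPKM at day 2 (5.99 to 10.5) and Hyou1 88.9 at day 10 (41.4 to 52.7). Manf reached 129.99 RPKM in 1 vagus SMA mouse of day 10 (43.2 to 54.7).

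Ddit3 was low, at 25.3 RPKM (45.6 to 48.6), in red nucleus neurons of day 10 control 252, whose library was the shallowest of the study, at 0.342 M reads. The ATF4 list had a high median of 5.60 log2 units (5.16 to 5.21) in lumbar control mouse 253 at day 10, the group set against SMA mice for Ddit3.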

How the results depend on the processing

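The log2 differences of single members recomputed here kept their sign under every alternative run. These were members past the threshold and the 6 of lowest unadjusted p between genotypes. They were picked for lying far from 0, so a change of sign was unlikely in advance. The untested list medians, which were not picked in this way, did change sign. Of these, 10 values under another setting and 56 with 1 mouse left out had the opposite sign. Of the counts of members under another setting 8 moved by more than 1.5 times, and where no reason is given the cause was not tested. With each library as its own sample the lumbar day 10 genotype count fell from 1 to 0 and the ocular age count went from 0 to 2. Ocular age calls numbered 1 after quantile normalization and 1 at day 2 without controls numbered above 200. Facial age calls fell from 2 to 1 with RPKM of at least 5, with a fit of just those groups, and without those day 2 controls. Red nucleus age calls fell from 4 to 1 with a fit of just those groups, which leaves fewer samples for the spread. The vagus day 2 median of the ATF4 list went from 0.16 to 0.63 without those controls, which leaves 1 control assumed to vary like the other groups. Leaving out each mouse in turn gave 0 to 1 calls for the lumbar day 10 genotype count, 0 to 1 for age in ocular, vagus and hypoglossal, 0 to 2 in facial, 3 to 5 in red nucleus and lumbar neurons, 16 to 19 between populations, 4 to 7 for lumbar against ocular, and 0 to 1 for the genotype difference between populations at day 2. With mouse as a replicate block 17 members passed between populations and 6 for lumbar against ocular, and the block changed no other call. Single members kept their side of the threshold in 253 values and lost it in 22 under other settings, and in 448 and 44 with 1 mouse left out. Precision is limited by 3 to 7 mice a group and by low depth, which matters most for Trib3, Phgdh, Ern1, Eif2ak2 and Edem1, all under 2 RPKM on average.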
